A study of Homo sapiens with 24 samples.

Results

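The SLAM (signaling lymphocytic activation molecule) receptors and their adaptors were examined in the table of super-enhancers of OCI-Ly7 cells, a human germinal center B-cell type diffuse large B-cell lymphoma line. The members were 9 listed genes: 8 of the receptor family (SLAMF1, SLAMF6, SLAMF7, SLAMF8, CD48, CD84, CD244 and LY9) and the adaptor gene SH2D1B. A super-enhancer was assigned to a member when it overlapped the GENCODE gene body extended by 50 kb on each side, and 3 of the 2615 super-enhancers in the table were found in this way. Regions were assigned by position, not by signal, but the member list was drawn up with earlier results of these data known. The series comprised 24 CUT&RUN samples in 12 groups of 2, formed by 3 histone marks (H3K4me1, H3K27ac and H3K4me3) and 4 genotypes of isogenic OCI-Ly7 clones, of which the edited ones were grown from single cells. These were the CRISPR non-edited control (WT), CREBBP-R1446C (C, labelled a homozygous knock-in that inactivates the acetyltransferase), KMT2D-KO (K, a homozygous knockout) and the combination of the C and K lesions (CK). The table held 1 column of signal, in which the 2 H3K27ac WT samples were combined, so the values carry no replicate error and no test between samples was possible. The other 22 samples had no value in it, and H3K27ac in C, K and CK was not analysed here.

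SLAM receptors are immunoglobulin-superfamily proteins on the surface of lymphocytes and other blood cells. Most of them bind the same receptor on a neighbouring cell, whereas CD48 is the ligand of CD244. Many carry tyrosine motifs in the cytoplasmic tail that recruit small SH2-domain adaptors of the SAP family, and in germinal centers SLAM contacts and the adaptor SAP in T cells take part in stable adhesion between T cells and B cells. H3K27ac, acetylation of lysine on histone H3, marks active promoters and enhancers, and a super-enhancer is a group of neighbouring H3K27ac peaks (constituents) joined into 1 region with a high summed signal.

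Of the 9 members, 7 had a super-enhancer within 50 kb. Over all 19970 protein-coding genes this share was 30.7%. The 7 genes were not independent, because they lay side by side and shared 3 regions. They formed a run on chromosome 1 of 378 kb (hg38, 160485030 to 160862887), in the order SLAMF6, CD84, SLAMF1, CD48, SLAMF7, LY9 and CD244, and no other protein-coding gene lay in that span. The 3 regions all fell inside the cluster. Their signals were 15313 (rank 1784 of the table by signal) over CD84, 53444 (rank 204) over SLAMF1 and 23572 (rank 1023) over SLAMF7. SLAMF8 and SH2D1B, which lie apart from the cluster on the same chromosome, had no region within 50 kb.

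**Figure D1:**
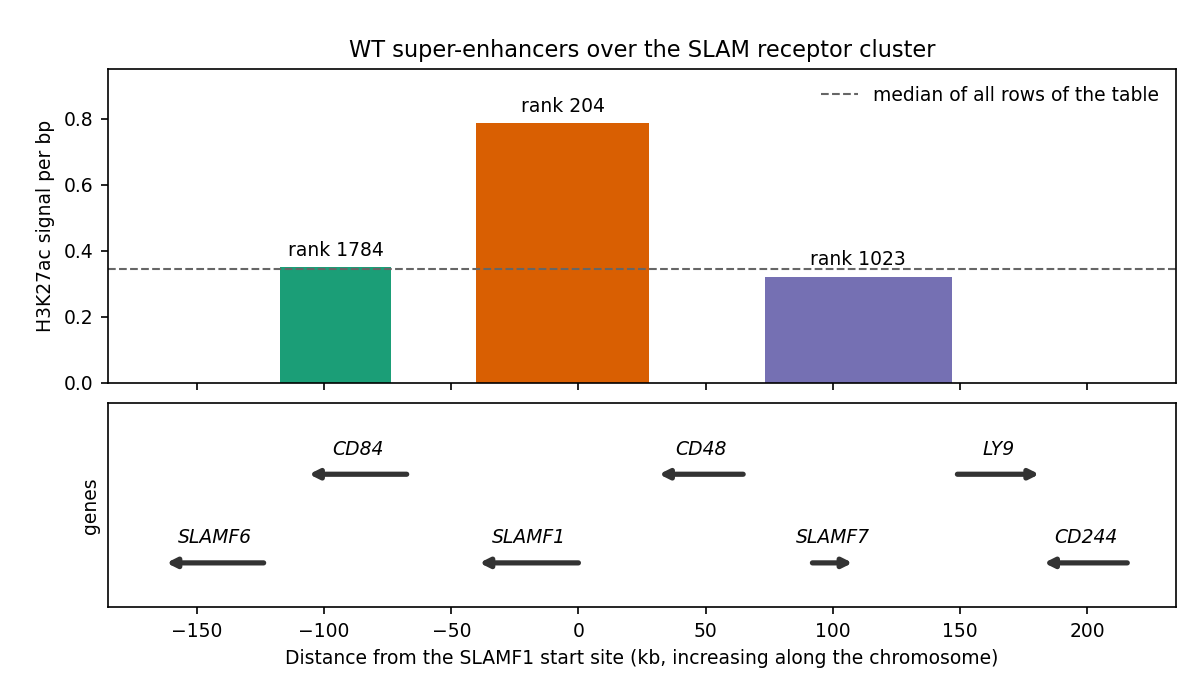
The upper panel plots the WT H3K27ac signal per bp of the 3 super-enhancers in the cluster as bars as wide as each region, and the lower panel the 7 receptor genes as arrows in the direction of transcription, both against distance in kb from the SLAMF1 start site. The bar over SLAMF1 reaches 0.786, while the bars at CD84 and SLAMF7 (0.350 and 0.321) lie close to the dashed line, the table's median of 0.343.

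Sequences are shown for the constituents at the ends of these regions, because a stitched region begins and ends with a constituent and the deposited table does not locate the constituents in between. Constituents were windows of 0.401 kb. The lines below give the middle 241 bases of 4 of the 5 end constituents that held a match to 1 of 11 transcription factor motifs in that stretch, on the plus strand of hg38. Capitals mark every match on either strand.

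SLAMF6 and CD84 region, last constituent, chr1:160573049-160573289: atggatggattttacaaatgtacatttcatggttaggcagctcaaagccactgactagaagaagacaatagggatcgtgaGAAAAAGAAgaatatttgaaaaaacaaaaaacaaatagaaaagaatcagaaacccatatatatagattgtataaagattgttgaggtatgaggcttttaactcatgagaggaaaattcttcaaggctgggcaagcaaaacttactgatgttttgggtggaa
SLAMF1 region, first constituent, chr1:160606875-160607115: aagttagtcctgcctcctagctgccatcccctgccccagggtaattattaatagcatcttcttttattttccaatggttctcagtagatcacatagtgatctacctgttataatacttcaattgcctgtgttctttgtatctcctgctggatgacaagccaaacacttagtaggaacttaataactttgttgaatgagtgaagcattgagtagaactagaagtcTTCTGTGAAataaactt
SLAMF1 region, last constituent, chr1:160674504-160674744: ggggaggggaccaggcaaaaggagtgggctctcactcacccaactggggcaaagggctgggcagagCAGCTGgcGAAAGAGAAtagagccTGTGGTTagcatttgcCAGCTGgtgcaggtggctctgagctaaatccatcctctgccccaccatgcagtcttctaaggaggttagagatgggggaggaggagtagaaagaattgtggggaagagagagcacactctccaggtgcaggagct
SLAMF7 and LY9 region, last constituent, chr1:160793483-160793723: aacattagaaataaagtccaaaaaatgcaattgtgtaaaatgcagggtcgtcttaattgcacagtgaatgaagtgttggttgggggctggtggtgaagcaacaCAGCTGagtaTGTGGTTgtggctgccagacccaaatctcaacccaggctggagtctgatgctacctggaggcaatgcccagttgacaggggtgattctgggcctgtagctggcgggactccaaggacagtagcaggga

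The last constituent of the SLAMF6 and CD84 region, in an intron of CD84, held the IRF letters GAAANNGAA at position 81 (position 1 is the first base printed). The first constituent of the SLAMF1 region held the STAT and BCL6 letters TTCNNNGAA at position 225, and 2 such matches over its whole width. The last constituent of the same region, 27.6 kb upstream of the SLAMF1 start, held the E-box letters CAGCTG at positions 67 and 107, IRF at 75 and the RUNX letters TGTGGTT at 91. The last constituent of the SLAMF7 region, centred 2.47 kb upstream of the LY9 start, held E-box at 104 and RUNX at 114. The first constituent of the SLAMF7 region, 8.79 kb upstream of the CD48 start, held none of the letters searched in its whole width.

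Among the 5230 end constituents of all regions, 24.9% held the E-box letters, 12% IRF, 10.3% STAT and BCL6 and 7.95% RUNX, and 61.8% held at least 1 of the 11 motifs. E-box and RUNX stood together in 2 of the 6 constituents near the members, against 2.24% of all. This pair was singled out after the matches were seen. Of the 11 motifs, 6 were not found in the 6 constituents: ETS (CCGGAAGT, in 0.440% of all end constituents), PU.1 (GAGGAAGT, 3.35%), the octamer (ATGCAAAT, 2.43%), NF-kB (GGGANNTTC, 4.76%), AP-1 (TGANTCA, 11.6%) and EBF (TCCCNNGGG, 8.59%). The ETS and PU.1 words share GGAAGT, and the E-box, AP-1, and STAT and BCL6 words read alike on both strands. Such short words match often, a match is only a description of the sequence, and the constituents inside the regions were not searched. None of the 6 constituents overlapped an exon of a protein-coding gene. Their GC content ranged from 36.7% to 53.4%, and the median over all end constituents was 49.4%.

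SLAMF1, a self-binding receptor of lymphocytes, lay within the strongest of the 3 regions. This region (chromosome 1, 160606795 to 160674824) covered 100% of the gene body and reached from the upstream constituent shown above to just past the 3′ end. Intronic sequence made up 51.3% of it, exonic sequence 5.90% and sequence without a coding gene 42.8%. It held 17 constituents over 68.0 kb, and its signal of 53444 was 5.03 times the cutoff in the file header. Of all regions, 92.2% had a lower signal. The region stood apart from regions of its own size: of 369 regions within 10% of its length, 361 had a lower signal, and their median of 19052 was exceeded 2.81 times. By signal per bp (0.786) it ranked 251, and by signal per constituent (3144, where the median of all regions was 1287) it ranked 278. CD84 lay 27.3 kb to one side and CD48 lay 3.92 kb to the other, so 3 receptor genes were within 50 kb of it and no other coding gene was. These 3 members thus had a region among the 262 with the highest signal (10% of the table) within 50 kb, all through this same region, whereas 3.59% of all protein-coding genes had one.

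The SLAMF1 start site was inside the region. The 250 bases before it are shown because they were the only promoter of a member that both lay within a super-enhancer and was found in the RefSeq promoter set used here, which held 6 of the 9 members (SLAMF1, SLAMF6, SLAMF8, CD48, CD244 and SH2D1B). The sequence runs 5′ to 3′ on the minus strand of GRCh38.p14, and no capitals appear because none of the 11 motifs was matched.

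SLAMF1 promoter, chr1:160647045-160647294: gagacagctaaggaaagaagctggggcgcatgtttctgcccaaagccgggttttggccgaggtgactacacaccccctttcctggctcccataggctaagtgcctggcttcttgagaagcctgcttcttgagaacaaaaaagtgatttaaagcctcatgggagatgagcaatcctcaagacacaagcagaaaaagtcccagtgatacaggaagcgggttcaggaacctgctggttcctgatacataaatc

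This stretch had a GC content of 50% and 4 CpG dinucleotides. The other member promoters held few CpG as well, with 5 in SLAMF8, 4 in CD48, 2 in SH2D1B and 1 each in SLAMF6 and CD244. The median over 21555 promoters of protein-coding genes was 17, and the 25th percentile was 5. The AP-1 letters were found in the promoters of SLAMF8, CD244 and SH2D1B (6.57% of all 35097 promoters in the set). The STAT and BCL6 letters were found in those of CD244 and SH2D1B (6.56%), NF-kB in that of SLAMF8 (3.52%) and the FOXO letters GTAAACA in that of SLAMF6 (2.98%). CD48 held none. The SLAMF8 stretch ran past the GENCODE start, and 62 of its 250 bases were exonic. Its NF-kB matches were at positions 175 and 223, the latter inside the GENCODE gene body.

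CD84, another self-binding receptor, and SLAMF6, a receptor of T, B and natural killer cells, shared the weakest of the 3 regions (chromosome 1, 160529567 to 160573369). It held 8 constituents over 43.8 kb, with a signal of 15313, or 1.44 times the cutoff, and 31.8% of all regions were lower. The region began 6.31 kb upstream of the SLAMF6 start, between the genes, and ran through 84.0% of the CD84 body to a point 6.15 kb short of the CD84 start. Of its bases, 52.8% were intronic, 20.8% exonic and 26.3% outside coding genes. Its signal per bp of 0.350 was near the median of all regions, and its signal was 0.957 times the median of the 290 regions within 10% of its length. By signal per constituent it stood higher, at 1914 (rank 703), where the median of all regions was 1287. Constituents made up 7.32% of its length, against a median of 11.2%. SLAMF1 was also within reach, at 34.7 kb beyond its 3′ end. SLAMF6 had this region alone, so its best rank of 1784 was the lowest among the 7 members with a region, whereas CD84 also reached the SLAMF1 region.

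SLAMF7, LY9, CD48 and CD244 were within 50 kb of the third region (chromosome 1, 160720416 to 160793803). SLAMF7 is known for its high level on plasma cells and natural killer cells, and its whole body and start site lay inside. The region held 13 constituents over 73.4 kb with a signal of 23572, 2.22 times the cutoff, and 60.9% of all regions were lower. Its signal per constituent of 1813 (rank 778) was also above the median of 1287, and constituents made up 7.65% of its length. Most of it (78.5%) lay outside protein-coding genes, with 14.9% intronic and 6.59% exonic. LY9, a self-binding receptor of B and T cells, began 2.27 kb after the region's end. CD48, the membrane-anchored ligand of CD244, started 8.59 kb before it and so was flanked by a region on each side, with the SLAMF1 region 3.92 kb past its 3′ end. CD244, a receptor of natural killer and cytotoxic T cells, was the farthest at 36.4 kb beyond its 3′ end, and its start was 69.1 kb away. Of all regions in the table, 32.5% had 4 or more coding genes within 50 kb and the median was 3, so the number of genes at this region was not unusual. In each of the 3 regions every coding gene within 50 kb was a SLAM receptor, which reflects a cluster that holds no other protein-coding gene.

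**Figure D2:**
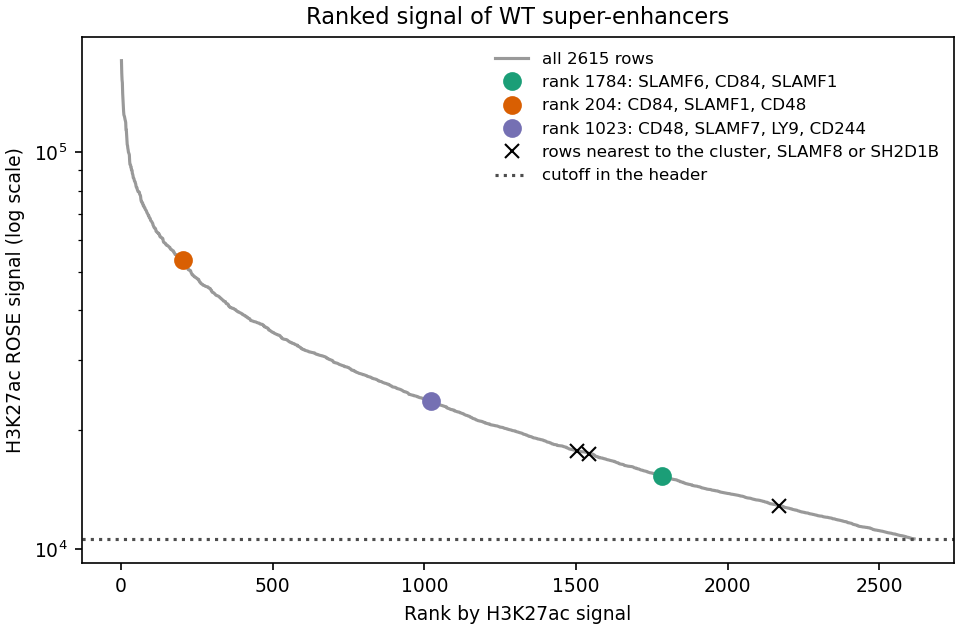
WT H3K27ac ROSE signal (log scale) is plotted against rank for all 2615 super-enhancers, with the 3 regions of the cluster as coloured points and the rows nearest to the cluster, SLAMF8 or SH2D1B as crosses. The SLAMF1 region (53444) sits on the steep part of the curve at rank 204, while the SLAMF7 region (23572) and the SLAMF6 and CD84 region (15313) sit on its slope at ranks 1023 and 1784.

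The 3 regions thus differed more in signal than in extent. Signal ranged 3.49-fold and length 1.68-fold. The SLAMF1 and SLAMF7 regions were of similar length (68.0 and 73.4 kb), but the signal was 2.27 times higher and the signal per bp 2.45 times higher over SLAMF1. The SLAMF1 region made up 36.7% of the summed length and 57.9% of the summed signal of 92329. By signal per bp the SLAMF6 and CD84 region (rank 1259) came before the SLAMF7 region (rank 1443), the opposite of their order by signal, and the pair differed by only 1.09 times on that scale. The spread between the WT replicates behind these differences is unknown. The GC content was alike in the 3 regions, at 41.8% (SLAMF6 and CD84), 41.7% (SLAMF1) and 43.0% (SLAMF7). The median over all regions was 45.7%, and the middle 50% of regions ran from 42.2% to 49.9%.

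**Figure D3:**
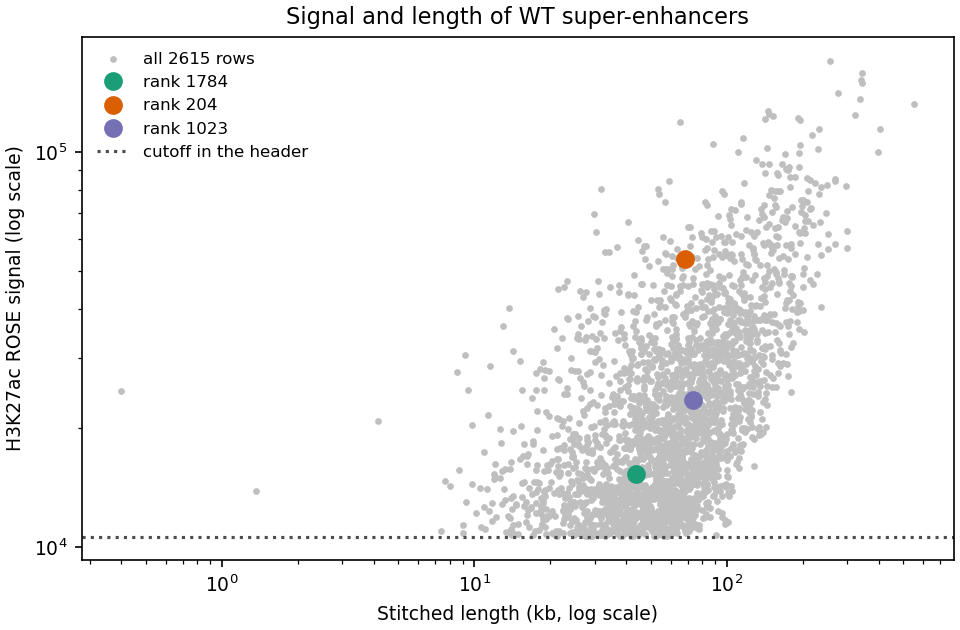
Each grey point is 1 of the 2615 WT super-enhancers, with stitched length in kb on the x axis and H3K27ac ROSE signal on the y axis, both on log scales, and the coloured points are the 3 regions of the cluster. The SLAMF1 region (68.0 kb, 53444) lies at the upper edge of the points of its length, whereas the other 2 lie within the bulk.

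Regions covered 185 kb of the cluster, or 49.0% of its span, against 7.37% of the non-N bases of chromosome 1 and 6.42% of those of chromosomes 1 to 22 and X. The gaps between the 3 regions were 33.4 and 45.6 kb, well beyond the stitching distance of 12.5 kb. The nearest regions outside were 546 kb before SLAMF6 and 188 kb after CD244. When chromosome 1, which held 241 regions, was cut into 658 tiles as long as the cluster, 25 tiles (3.80%) touched 3 or more regions and 477 touched none. A cluster cut out by its genes is not placed like a tile, so this is a description of density only.

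The position of the start sites varied. A super-enhancer touched the gene body of 3 members (CD84, SLAMF1 and SLAMF7), and 17.3% of all protein-coding genes were touched. The start lay inside a region for 2 of the 9 (SLAMF1 and SLAMF7), where 7.81% of all coding genes had this. LY9, CD84, SLAMF6 and CD48 had their start outside but between 2.27 and 8.59 kb from an edge. For CD84 the nearest region lay downstream of the start, with 73.7% of it overlapping the gene and the rest past the 3′ end, while the region near LY9, SLAMF6 and CD48 lay upstream. ROSE was set by the authors to leave out peaks within 2.5 kb of a start before stitching, so acetylation directly at a promoter may be missing from the listed constituents. The end constituent near LY9 straddles that distance, with its edge at 2.27 kb from the start.

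The members outside the cluster differed from each other in distance. SLAMF8 (chromosome 1, 159826811 to 159837492), a receptor mainly of myeloid cells, had its nearest region at 73.0 kb, the first value outside the 50 kb limit, as CD244 with 36.4 kb was the last inside. That region (rank 1543, signal 17423, 7 constituents over 28.1 kb at 159910453 to 159938559) overlapped TAGLN2 and IGSF9. It was 12.9 kb from SLAMF9, a family gene that is not a member of the list. SH2D1B (162395268 to 162412138), which encodes an SH2 adaptor used by SLAM receptors in natural killer cells, was 656 kb from its nearest region, which had rank 2170 and overlapped FCRLB. SH2D1A, the gene of the adaptor SAP on chromosome X, is mainly used in T and natural killer cells and had no region within 3458 kb.

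Genes that act with these receptors were counted in the same way. CD2 and CD58, relatives of the family that bind each other across cells, had no region within 50 kb, with the nearest at 402 and 162 kb. Of 17 genes of proximal signalling below SLAM receptors and related immune receptors, 11 (64.7%) had a region within 50 kb, beside the 30.7% of all coding genes given above. These 11 had 18 regions between them, and their median best rank was 1303. Regions among those 262 were found for 4 of the 17 genes, where 3.59% of all protein-coding genes had one within 50 kb. PLCG1, a phospholipase that releases second messengers, was 2.47 kb from the region of rank 11 (signal 123021, 38 constituents over 153 kb). PIK3CD, a catalytic subunit of PI3 kinase, overlapped the region of rank 108 (signal 64794), and its start lay inside. LYN, a Src-family kinase of B cells, was 4.72 kb from the region of rank 166 (signal 56912) and overlapped that of rank 320. VAV1, a guanine nucleotide exchange factor of blood cells, overlapped that of rank 194 (signal 54237). FYN, the Src-family kinase that SAP binds, had 2 regions, the better at rank 1835 (signal 14901). That region was 47.4 kb from the gene body, whereas the region of rank 2279 overlapped it. INPP5D, a lipid phosphatase recruited by inhibitory receptors, had its start inside the region of rank 1936 (signal 14160). PTPN11, a tyrosine phosphatase, was nearest to the cutoff, with a signal of 11156 (rank 2495). The 6 genes without a region were CSK, PTPN6, INPPL1, PIK3R1, PRKCQ and BECN1, at distances from 60.7 kb for BECN1 to 994 kb for PIK3R1.

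**Figure D4:**
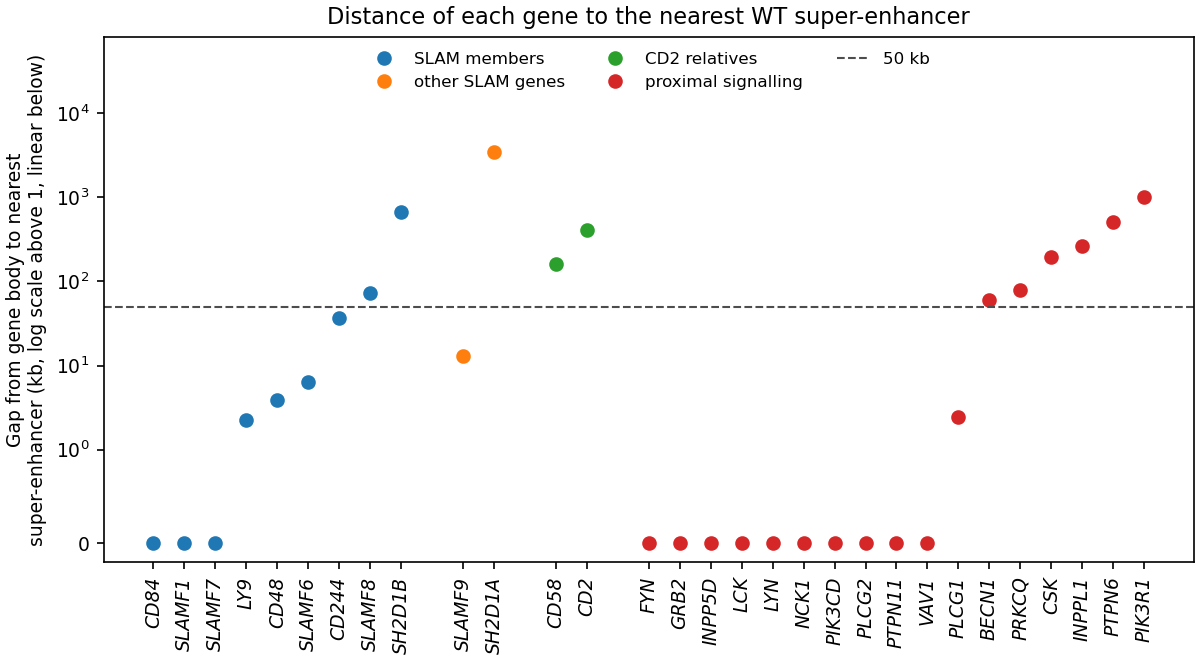
Each point is the gap in kb from a gene body to the nearest WT super-enhancer (log scale above 1 kb, linear below), for the 9 members, SLAMF9 and SH2D1A, CD2 and CD58, and 17 signalling genes, with a dashed line at 50 kb. Of the members, 7 lie under the line, SLAMF8 (73.0 kb) is just above it and SH2D1B (656 kb) far above it, and SH2D1A has the largest gap of the genes shown at 3458 kb.

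Other surface receptor families with a role beside the SLAM genes were set beside them as a description. Of 16 Fc receptor and Fc receptor-like genes, most of which also lie on chromosome 1, 7 (43.8%) had a region, through 4 distinct regions with a median best rank of 2170. Of 14 costimulatory and checkpoint genes, 6 (42.9%) had one, through 6 regions with a median best rank of 990. The share over all protein-coding genes was 30.7%. The SLAM members with a region had a median best rank of 1023, and 3 of them had a region among those 262, whereas no gene of the other 2 lists did. Of all protein-coding genes, 3.59% had a region among those 262 within 50 kb. In lists of 14 and 16 genes, finding none is near that share. The difference between the lists was not tested, and genes that share a region are counted several times.

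As a check of the line, regions within 50 kb were counted for B-cell genes, of which 1 is not reported here. Best ranks were 1218 for MS4A1, 159 for CD79A, 2257 for CD79B, 216 for PAX5, 1468 for BCL6 and 1255 for MEF2B. Among 6 genes of T cells and natural killer cells, CD247 (rank 1738) and KLRD1 (rank 422) had one and CD3E, CD2, NCAM1 and NCR1 had none. That share of 33.3% was near the 30.7% of all coding genes. KLRD1 ranked above MS4A1, CD79B, BCL6 and MEF2B, so the check is a loose one. Membership within 50 kb is set by distance alone, so a region near a gene is not shown to act on it.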

How the data were processed

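CUT&RUN was done by the authors on OCI-Ly7 cells. Per the study's methods, reads were processed with nf-core cutandrun on hg38 with IgG controls, depth was scaled to reads at promoters, peaks came from SEACR and summits from MACS2, and ROSE was run on WT H3K27ac without non-coding RNA TSS, leaving out peaks within 2.5 kb of a TSS. The deposited table gives the ROSE signal of each stitched region for the combined WT libraries, its constituents, their summed length and its rank. The unit of the signal is not stated, so it was used as a relative value. All regions exceeded the cutoff of 10617, and those below it were not analysed here. Read counts per region, and so the depth behind each signal, are unknown, and no interval was computed.

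Regions were overlapped with GENCODE release 44 (hg38) in Python 3.11.15 with numpy 2.4.6 and pandas 2.3.3. Signal per bp was signal divided by end minus start. The first and last 0.401 kb of each region were taken as constituents, since the summed constituent length was a whole multiple of this width in 2609 of 2615 regions. Motif letters were searched on both strands. The cluster was the longest run of members with gaps under 250 kb. Overlap and motif functions were tested on simulated data. Tyrosine motifs in the receptor tails, planned at first, were not analysed here. No test was made, because there was 1 pooled value per region. The members, lists and motifs were chosen with earlier results of these data known. Named were all members with their regions, and of the signalling genes those with a region among the 262 of highest signal, those nearest to and farthest from a limit, and a few (FYN, INPP5D) chosen after their values were seen. 1 end constituent and 1 marker gene are not reported here. Alternatives varied the extension, the regions, the ranking and the windows.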

Additional observations from a re-analysis of the deposited data

How the results depend on the processing

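The count of 7 members with a region fell to 3 when gene bodies were not extended, where 17.3% of all protein-coding genes were touched. With extensions of 10 and 25 kb the count was 6, and with 100 kb it was 8. The count was also 6 among the upper 1307 regions by signal, and with 50 kb around the start site alone. The share over all protein-coding genes was not computed at these other settings, so the counts there show only how the member list responds. The number of distinct regions was 2 in those 1307 regions, 4 with 100 kb and 3 under the other alternatives run. The cluster held 4 regions when members up to 1000 kb apart were joined, which took in SLAMF8. The median rank of the 3 regions, 1023 by signal, was 1259 by signal per bp and 703 by signal per constituent. The median signal per bp of 0.350 became 4.77 when divided by the summed constituent length, a change of denominator (the median of all regions was 3.03 on that scale). Of 22 alternatives for the shares of end constituents with a motif, 6 moved a share, each of them resting on at most 2 of 6 constituents. No paired analysis was possible because the table holds 1 column of pooled WT libraries without replicate numbers. The values have no replicate spread, which limits the SLAMF6 and CD84 region most, as it was the nearest of the 3 to the cutoff.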

Other observations

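The summed constituent length of the SLAMF1 region came to 18 windows although 17 constituents were listed, and that of the SLAMF7 region to 14 although 13 were listed, while the SLAMF6 and CD84 region had 8 of each. The first pair contains the start site of a coding gene and the last does not. Over the whole table, the length exceeded the listed constituents in 1026 of 1144 regions with a coding start (89.7%) and in 284 of 1471 without one (19.3%). The cause was not tested.

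The end constituent upstream of SLAMF1 was 1 of 12 among 5230 end constituents (0.229%) that held the E-box, RUNX and IRF letters together. This combination was singled out after the matches were seen, and no test was made.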
